A study of Mus musculus with 6 samples.

Results

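The genes described here encode 10 subunits of the MSL and NSL complexes, the assemblies in which the lysine acetyltransferase MOF (gene symbol Kat8) works. They were taken by symbol from the 23538 genes of the deposited tables: Msl1, Msl2 and Msl3 for the MSL complex, and Kansl1, Kansl3, Hcfc1, Mcrs1, Ogt, Phf20 and Wdr5 for the NSL complex. Each symbol stood on 1 line, and all 10 genes passed the filter on low values. The bone marrow cells came from mice that were wild type or heterozygous for Mof (Mof -/+), and 15 cells per sort were profiled by CEL-Seq2, which counts the 3' ends of messenger RNA. The sorts were blood stem cells (HSC), 3 gates of multipotent progenitors (MPP2, MPP3, MPP4), and 2 gates of more committed cells, the common myeloid (CMP) and the megakaryocyte-erythroid (MEP) progenitors. Each gate had 3 wild-type and 3 heterozygous libraries, 36 in all, listed under 6 samples. Each of these samples holds 1 genotype, so sample and genotype cannot be told apart in any population. The labels do not give the age of the mice, the kind of Mof allele, or whether separate animals stand behind the 3 libraries of a group. The p-values therefore rest on library-to-library spread alone, part or all of which may be technical.

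MOF acetylates histone H4 within both complexes. In the MSL complex, MSL1 is the scaffold that holds MOF, MSL2 is a RING-type ubiquitin ligase and MSL3 carries a chromodomain; the complex is best known for acetylation of lysine 16 of H4. In the NSL complex, KANSL1 is the scaffold and the complex sits at promoters of widely expressed genes. Several NSL subunits also work elsewhere: HCFC1 is a cofactor of many transcription factors, OGT adds O-linked N-acetylglucosamine to proteins and cleaves HCFC1, and WDR5 is a core part of the MLL/SET1 histone methyltransferases.

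Library totals ran from 1577 to 123765 counts, with a median of 41227. Wild-type libraries together held 656112 counts and heterozygous libraries 1115406. In 6 libraries the total was under the median divided by 3: all 3 of wild-type MPP2, wild-type MPP3 replicates 1 and 2, and heterozygous HSC replicate 2. The last held no count of any member, and 1 count there stood for 634 CPM (counts per 1000000 counts of genes). Summed marker lists were highest in the population they mark, in both genotypes: HSC markers in HSC, erythroid markers in MEP, myeloid markers in CMP and lymphoid priming markers in MPP4. Some sums did not overlap between the genotypes. HSC markers were at 0 to 864 CPM in wild-type and 1259 to 1751 CPM in heterozygous MPP3, and at 143 to 282 against 331 to 519 CPM in MEP. Erythroid markers were at 88.5 to 405 against 917 to 1769 CPM in MPP2. In CMP they were at 1281 to 1508 against 646 to 1077 CPM, and in MEP at 2343 to 3188 against 3368 to 3656 CPM. All other sums of these lists overlapped. Wild-type HSC replicate 3 went against its label, with 1 count of the 9 HSC markers (32.7 CPM) where the other 2 wild-type HSC libraries had 2372 and 1852 CPM. Summed mature neutrophil markers ranged from 4703 to 19170 CPM in wild-type MPP3 and from 69.9 to 1401 CPM in heterozygous MPP3, and so did not overlap. In MPP4 they ranged from 26.1 to 32980 CPM in wild-type and from 0 to 8.43 CPM in heterozygous libraries. In MEP they reached 31290 CPM in a wild-type and 27630 CPM in a heterozygous library. Globin ranged from 7048 to 34360 CPM in wild-type HSC and from 0 to 634 CPM in heterozygous HSC, and reached 145900 CPM in a wild-type and 102600 CPM in a heterozygous MPP4 library. Mature B cell markers summed to 2613 to 4604 CPM in wild-type and 520 to 1057 CPM in heterozygous MPP2, and to 39.3 to 53.9 CPM against 0 to 16.2 CPM in CMP. The part of these marker differences, of other cells and of depth in the results below was not tested. In bulk sorts, fewer cells of a type and less RNA per cell cannot be told apart.

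The genes lie on 6 chromosomes, and Hcfc1, Ogt and Msl3 are X-linked. In GRCm38 coordinates (GENCODE annotation), the MSL genes are Msl1 at chr11:98795516-98807859 on the plus strand, Msl2 at chr9:101074101-101104800 on the plus strand and Msl3 at chrX:168654117-168673898 on the minus strand. The NSL scaffold gene Kansl1 is at chr11:104333229-104468861 on the minus strand and Kansl3 at chr1:36335730-36369181 on the minus strand. Hcfc1 is at chrX:73942792-73966357 on the minus strand and Ogt at chrX:101640060-101684351 on the plus strand. Mcrs1 is at chr15:99242817-99251961 on the minus strand, Phf20 at chr2:156196466-156309952 on the plus strand and Wdr5 at chr2:27515157-27536535 on the plus strand. The annotated 3' ends of Msl1 and Mcrs1 lie inside other annotated genes of the tables. That of Msl1 lies inside Casc3 on the same strand (and Gm12359 on the other), and that of Mcrs1 inside Kcnh3 on the other strand. How the authors' counting treated such overlaps is not given in the sources used here, so the values of these 2 genes are uncertain to that extent.

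The members' promoters were compared with those of other genes in the same tables. The 250 bases before the most upstream RefSeq start (GRCm38.p6) held 12 to 30 CG dinucleotides per member, with a median of 19.5, against a median of 17 over the 4912 tested genes with such a sequence. GC content had a median of 63% in the members and 60.4% over those genes. Each of 4 motifs searched on both strands was found in 2 of the 10 promoters. AAGATGG, the core of a YY1 motif, was in Hcfc1 and Wdr5 and in 4.6% of all 4912 promoters, and CCGGAAG, an ETS motif, was in Hcfc1 and Mcrs1 and in 16.4%. GCGCATGC, an NRF1 motif, was in Msl2 and Ogt and in 5.19%, and CCAAT was in Kansl1 and Phf20 and in 36.4%. A match describes the letters only. The promoters of the most counted member of each complex are shown as examples, Hcfc1 at chrX:73966358-73966607 on the minus strand and Msl1 at chr11:98795266-98795515 on the plus strand, 5′ to 3′, with each CG dinucleotide in capitals.
Hcfc1: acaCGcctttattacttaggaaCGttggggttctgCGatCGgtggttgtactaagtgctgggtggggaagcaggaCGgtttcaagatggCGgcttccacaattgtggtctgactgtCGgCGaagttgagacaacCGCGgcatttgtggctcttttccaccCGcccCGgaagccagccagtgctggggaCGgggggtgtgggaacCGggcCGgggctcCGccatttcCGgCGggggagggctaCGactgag
Msl1: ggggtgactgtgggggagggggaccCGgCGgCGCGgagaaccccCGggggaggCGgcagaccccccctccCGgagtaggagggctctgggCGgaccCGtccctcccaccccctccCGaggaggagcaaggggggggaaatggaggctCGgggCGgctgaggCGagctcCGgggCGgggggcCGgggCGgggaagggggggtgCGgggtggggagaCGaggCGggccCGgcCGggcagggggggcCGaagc

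All 10 genes were expressed at modest levels, with 1824 counts between them in the 36 libraries. Because CEL-Seq2 tags 1 end of each transcript, the values were not divided by gene length. Pooled over all libraries, Hcfc1 was the highest at 199 CPM (353 counts, exact Poisson 95% interval 179 to 221). Msl1 followed at 154 CPM (136 to 174), then Ogt at 134 CPM (118 to 153) and Kansl1 at 128 CPM (112 to 146), and these 3 neighbours did not differ beyond their counting intervals. The next step down led to Msl2 at 87.5 CPM (74.3 to 102), Wdr5 at 83 CPM (70.1 to 97.5), Phf20 at 72.8 CPM (60.8 to 86.5) and Mcrs1 at 71.1 CPM (59.3 to 84.7), whose intervals overlap. Msl3 at 51.4 CPM (41.4 to 63.1) and Kansl3 at 48 CPM (38.3 to 59.3) were the lowest. Kat8 itself was lower than every member, at 13 CPM (23 counts, 8.23 to 19.5). These intervals cover counting error only.

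Detection did not strictly follow that order. Hcfc1 had a count in 32 of 36 libraries, Msl1 in 35, Ogt in 31, and Msl3 and Kansl3 in 26 each. All 10 members were seen together in 21 libraries. Among the 30 deeper libraries, at least 6 of the 10 members were present in each, whereas the 6 shallow libraries held between 0 and 7 members. Kansl3 had no count in any of the 6 shallow libraries. The spread between libraries of a group was close to counting error for Hcfc1, with a ratio of observed to expected variance of 0.905, and largest for Wdr5 (1.8) and Ogt (1.71).

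**Figure D1:**
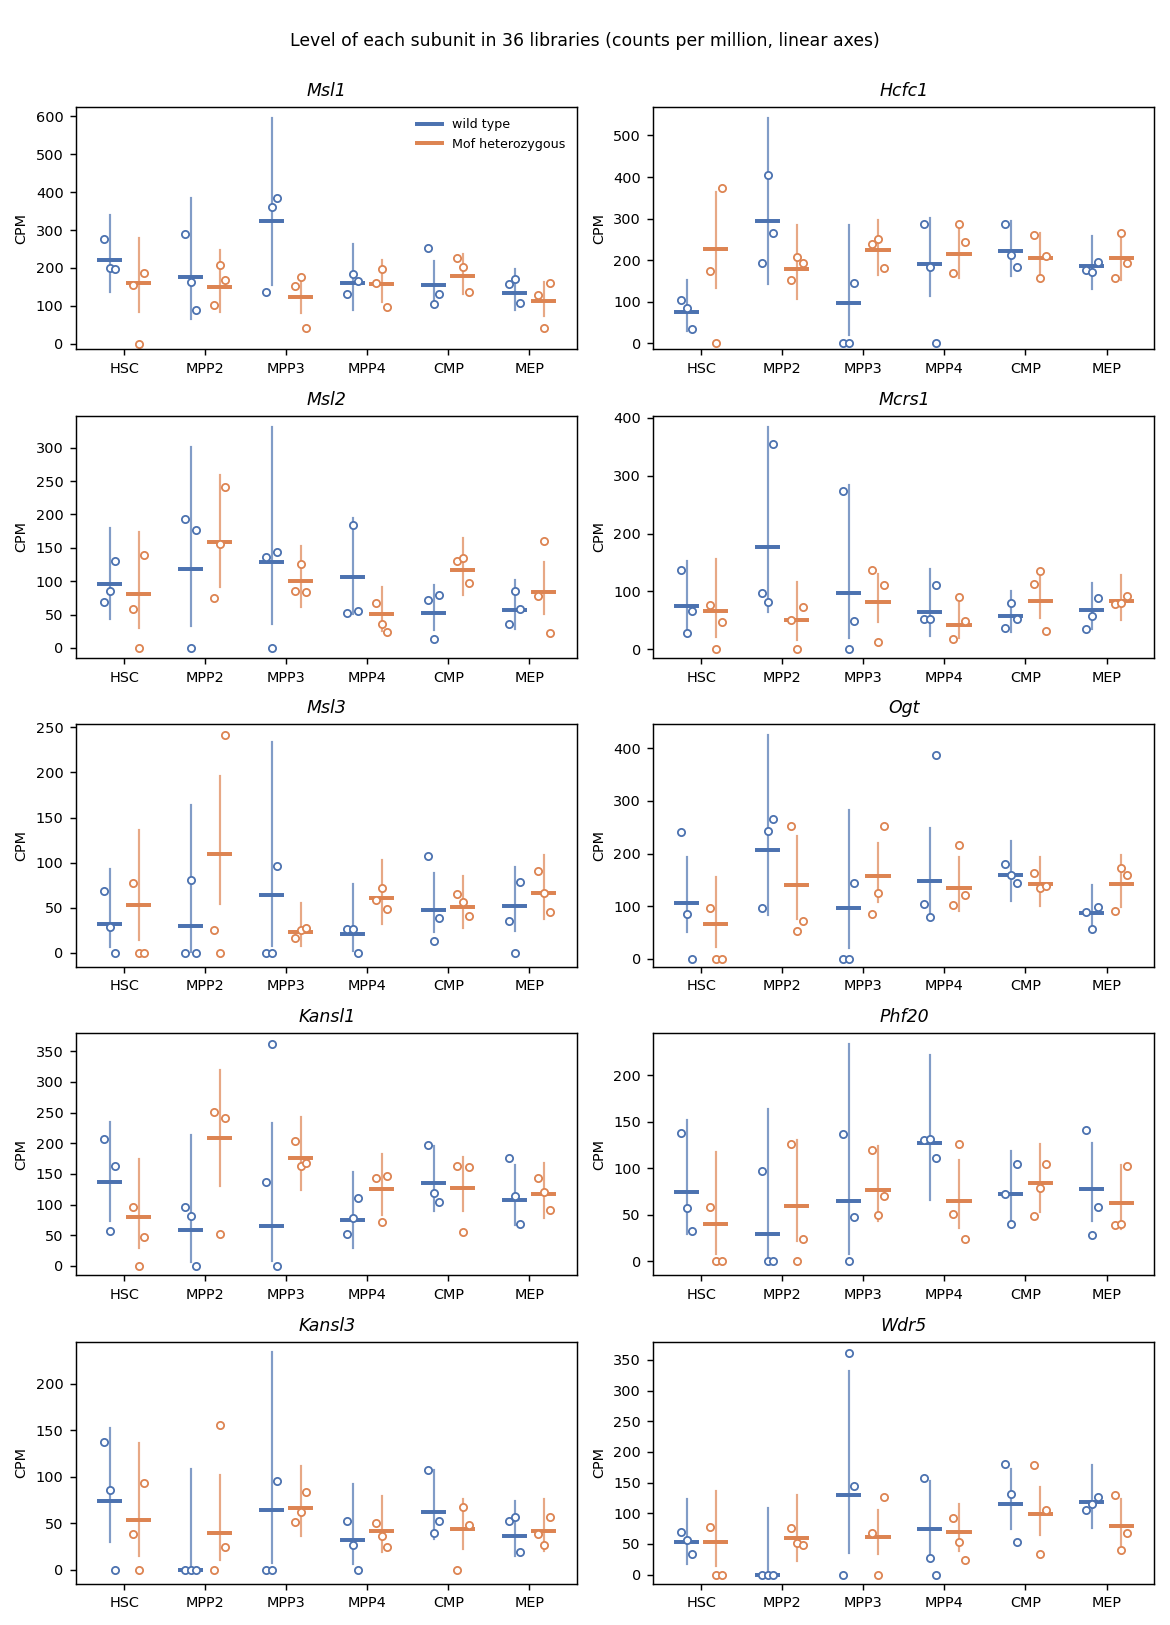
Level of each of the 10 subunits in CPM (linear vertical axes, 1 panel per gene) in the 6 populations. Open circles are single libraries, horizontal bars the pooled level of 3 libraries and vertical lines its exact Poisson 95% interval; wild type is blue and Mof heterozygous orange. The circles at 0 lie mostly in the shallow libraries of wild-type MPP2 and MPP3 and in heterozygous HSC replicate 2, and the wild-type intervals are mostly widest in MPP2 and MPP3.

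The first comparison asked whether subunit transcripts differed between Mof heterozygous and wild-type cells over all populations. None of the 10 members was called by limma at a false discovery rate of 0.05, where 0.0776% of the 6444 genes tested were called. At an unadjusted p under 0.05 limma had 0 members, and edgeR's quasi-likelihood test had 2 (Hcfc1 and Kansl1) and also called 0 (0.677% of 6053 genes with at least 50 counts). For no test in this report was the share of all genes under an unadjusted p of 0.05 computed. Counts of genes under it are therefore descriptions without a background. Differences are given as heterozygous minus wild type on the log2(value + 1) scale of the deposited values, averaged over the 6 populations. Of the members, 6 were above 0 and 4 below, with a median of 0.11, beside a median of 0.12 and 67.3% of genes above 0 over all genes tested. With edgeR, the median was 0.39 for the members and 0.33 for all genes.

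Among the MSL genes, the scaffold gene Msl1 had an average difference of -0.35 (SE 0.24, 95% interval -0.83 to 0.13; limma adjusted p = 0.646). Msl2 stood at 0.18 (SE 0.26) and the chromodomain gene Msl3 at 0.46 (SE 0.26, interval -0.053 to 0.98; adjusted p = 0.522 with limma). Pooled over the populations, Msl1 was at 168 CPM in wild-type and 146 CPM in heterozygous libraries, and its intervals of 138 to 202 and 125 to 170 CPM overlap. Among the NSL genes, the cofactor gene Hcfc1 had the largest limma difference, 0.54 (SE 0.27, interval -0.0076 to 1.09; limma adjusted p = 0.473). In edgeR it was 0.59, with an adjusted p of 0.218. The scaffold gene Kansl1 was at 0.21 by limma and 0.67 by edgeR (adjusted p = 0.26). Kansl3 was at 0.13 by limma and 0.7 by edgeR (adjusted p = 0.502), the highest edgeR value of the members. Wdr5 was at -0.077 by limma and 0.53 by edgeR, and Phf20 at -0.18 and 0.048. Wild-type MPP2 held no count of Kansl3 or Wdr5, so both edgeR averages include a population without a measured fold. In the other populations, heterozygous over wild-type ratios of pooled counts ran from 0.699 to 1.32 for Kansl3. For Wdr5 they ran from 0.478 to 1.01. Ogt was at 0.093 and Mcrs1 at -0.15 by limma. The SE of the limma values of Kansl1, Kansl3, Wdr5, Phf20, Ogt and Mcrs1 was between 0.25 and 0.27. The 95% intervals of all 10 include 0. They reach from -0.83 for Msl1 to 1.09 for Hcfc1, so equal levels were not shown.

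**Figure D2:**
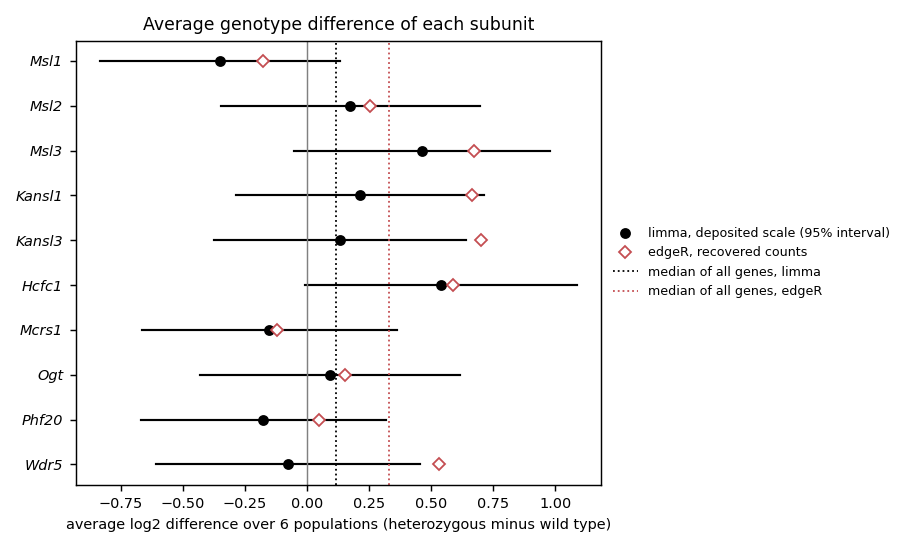
Average log2 difference of each subunit over the 6 populations, heterozygous minus wild type. Filled circles with lines are limma estimates on the deposited scale with 95% intervals, and open diamonds are edgeR estimates from recovered counts. Dotted lines are the medians of all genes (0.12 for limma, 0.33 for edgeR). Every limma interval includes 0, Hcfc1 and Msl3 have the highest limma estimates, and Kansl3 has the highest edgeR estimate. The edgeR estimates of Kansl3 and Wdr5 include MPP2, where wild type held no count of either gene.

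Within single populations, 0 of the 60 pairs of member and population were called by limma. The share of all 6444 genes called was 0.0155% in HSC, 0.0776% in MPP2, 0.31% in MPP3 and 0.031% each in MPP4, CMP and MEP. At an unadjusted p under 0.05 limma had 2 pairs, Hcfc1 (limma adjusted p = 0.139) and Ogt (limma adjusted p = 0.241), both in MPP3. The share of all genes under that threshold was not computed, so these 2 pairs show no excess over other genes. Whether the genotype difference of a member varied between populations was tested as an interaction, and no member was called (limma, 0 at an unadjusted p under 0.05, lowest adjusted p = 0.638; 0.031% of genes called). EdgeR's interaction test also called 0 members (0.43% of genes called), with 1 member, Kansl1, under an unadjusted p of 0.05 (adjusted p = 0.586).

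The largest single limma difference among the 60 pairs was that of Hcfc1, in MPP3, and its pooled ratio was 3.07 in HSC. In wild-type HSC its level was 103, 85.5 and 32.7 CPM (3, 3 and 1 counts), and in heterozygous HSC it was 173, 0 and 373 CPM (9, 0 and 8 counts). The 2 heterozygous libraries with any member count lay above all 3 wild-type libraries, and the groups overlap only through the shallow heterozygous replicate 2. The exact 95% interval of that ratio of pooled counts was 1.21 to 8.76. Like every interval of a pooled ratio given here, it covers counting error only and leaves out the spread between libraries. The limma difference was 0.44 (SE 0.67, adjusted p = 0.94) and 1.33 without the shallow libraries (adjusted p = 1). Without wild-type HSC replicate 3, the library that lacks HSC markers, the ratio was 2.43 with an interval of 0.913 to 7.52.

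In MPP3, Hcfc1 was at 0, 0 and 144 CPM in wild type (0, 0 and 3 counts) and at 238, 250 and 182 CPM in heterozygous libraries (14, 20 and 13 counts). All heterozygous libraries were higher, as they were for 21.6% of the genes tested in MPP3. Both zeros come from libraries of 7304 and 2764 counts. The limma difference was 1.99 (SE 0.67, adjusted p = 0.139), and it dropped to 0.55 (SE 0.75, adjusted p = 0.869) without the shallow libraries. That fit sets the 3 heterozygous libraries against wild-type replicate 3 alone, which is assumed to vary like the libraries of the other groups. The pooled ratio was 2.3 (0.741 to 11.6). In MPP4, wild-type Hcfc1 was at 287, 184 and 0 CPM and heterozygous Hcfc1 at 169, 287 and 244 CPM, so the groups overlapped (pooled ratio 1.12, 0.638 to 2.06).

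In MPP2 the pooled level of Hcfc1 was lower in heterozygous cells, with 194, 405 and 266 CPM in wild-type and 151, 208 and 193 CPM in heterozygous libraries. Those groups overlapped, and the ratio of 0.609 had an interval of 0.267 to 1.48. CMP and MEP, the deepest populations, gave the narrowest intervals for this gene. In CMP the wild-type libraries were at 287, 211 and 183 CPM and the heterozygous ones at 260, 157 and 210 CPM (ratio 0.922, 0.613 to 1.39). In MEP they were at 176, 171 and 195 CPM against 156, 266 and 194 CPM (ratio 1.1, 0.702 to 1.74).

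Ogt, whose product modifies and cleaves HCFC1, had the same wild-type zeros in MPP3 as Hcfc1. Its levels there were 0, 0 and 144 CPM in wild type and 85.1, 125 and 252 CPM in heterozygous libraries, and these groups overlap. The limma difference of 1.47 (SE 0.64, adjusted p = 0.241) was 0.028 without the shallow libraries, again against 1 wild-type library. In CMP, Ogt was nearly level, at 180, 158 and 144 CPM in wild type and 162, 135 and 137 CPM in heterozygous libraries (ratio 0.895, 0.548 to 1.47). In MEP it was at 88.1, 57.2 and 97.7 CPM against 90.8, 173 and 160 CPM, overlapping by 1 heterozygous library (ratio 1.62, 0.879 to 3.09).

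Msl1, the MSL scaffold gene, had the lower pooled level in heterozygous MPP3. Its wild-type levels there were 137, 362 and 384 CPM (1, 1 and 8 counts) and its heterozygous levels 153, 175 and 41.9 CPM (9, 14 and 3 counts). The groups overlap through wild-type replicate 1. The pooled ratio was 0.382 (0.178 to 0.888), while the limma difference was -0.72 (SE 0.59, adjusted p = 0.533) and -1.45 (SE 0.62, adjusted p = 0.776) without the shallow libraries, against the same single wild-type library. In HSC, Msl1 was at 275, 200 and 196 CPM in wild type and at 154, 0 and 186 CPM in heterozygous libraries, and every heterozygous library was lower. That held for 6.33% of the genes tested in HSC. The limma difference there was -1.09 (SE 0.59, adjusted p = 0.749) and -0.37 without the shallow libraries. In CMP, MPP4 and MEP the ratios of this gene were 1.16, 0.995 and 0.84, each with an interval that includes 1.

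The ubiquitin ligase gene Msl2 was higher in all heterozygous CMP libraries, as were 7.79% of the genes tested in CMP. It was at 71.8, 13.2 and 78.5 CPM in wild type (4, 1 and 6 counts) and at 130, 135 and 97 CPM in heterozygous CMP (8, 12 and 12 counts). The pooled ratio was 2.2 (1.08 to 4.84) and the limma difference 1.12 (SE 0.64, adjusted p = 1). In MPP4 the pooled level of Msl2 was lower in heterozygous cells, 51.1 against 106 CPM, with an interval of the ratio of 0.186 to 1.27. Msl3 was higher in all heterozygous MPP4 libraries, at 59, 71.8 and 48.8 CPM against 26.1, 26.2 and 0 CPM in wild type (limma difference 1.13, SE 0.63, adjusted p = 0.698). All heterozygous libraries were higher for 6.08% of the genes tested in MPP4. These Msl3 levels rest on 13 and 2 counts, and the ratio of 2.85 had an interval of 0.646 to 26.

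Kansl1 was at 251.6, 52 and 241 CPM in heterozygous MPP2 and at 96.8, 81 and 0 CPM in wild-type MPP2. In MPP3 its heterozygous libraries were close together at 204, 163 and 168 CPM, and its wild-type libraries were at 137, 362 and 0 CPM on 1, 1 and 0 counts. Without the shallow libraries only the wild-type library at 0 remained, and the limma difference in MPP3 went from 0.94 to 2.45 (SE 0.68, adjusted p = 0.238), with its spread taken from the other groups. In HSC the pooled level was 137 CPM in wild type and 80.1 CPM in heterozygous cells, with an interval of the ratio of 0.182 to 1.65. In CMP and MEP, where Kansl1 had 21 to 35 counts per group, the ratios were 0.947 and 1.08.

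Wdr5 and Kansl3 had no count in wild-type MPP2, where 3 counts over the group would be 88.3 CPM. Heterozygous MPP2 held Wdr5 at 75.5, 52 and 48.3 CPM (6 counts) and Kansl3 at 0, 156 and 24.1 CPM (4 counts). Both heterozygous pooled levels, 59.8 and 39.8 CPM, lie under that floor, so no fold is given. Mcrs1 was lower in all heterozygous MPP2 libraries, at 50.3, 0 and 72.4 CPM against 96.8, 81 and 354 CPM, on 5 and 6 counts (ratio 0.282, 0.0681 to 1.11). All heterozygous libraries were lower for 4.97% of the genes tested in MPP2. Phf20, which encodes a reader with Tudor and PHD domains, overlapped between the genotypes in all 6 populations, with pooled ratios from 0.512 in MPP4 to 1.18 in MPP3 in the 5 populations other than MPP2. In MPP2 it had 1 wild-type and 6 heterozygous counts (ratio 2.03, 0.246 to 93.3).

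Over the 60 pairs, heterozygous libraries were all higher in 4 and all lower in 2, beside 8.76% and 4.55% of the 38664 pairs of tested gene and population. The 4 were Wdr5 in MPP2, Hcfc1 in MPP3, Msl3 in MPP4 and Msl2 in CMP, and the 2 were Msl1 in HSC and Mcrs1 in MPP2. In wild-type MPP2, 1 count stood for 81 to 96.8 CPM, above every heterozygous level of Wdr5 there (48.3 to 75.5 CPM). Msl1 in HSC includes the 0 of heterozygous replicate 2, a library of 1577 counts. These shares varied by population. They ran from 0.9% in HSC to 21.6% in MPP3 for all higher, and from 1.8% in MPP3 to 6.33% in HSC for all lower. The exact interval of the pooled ratio lay above 1 for 2 pairs, Hcfc1 in HSC and Msl2 in CMP, and below 1 for 1 pair, Msl1 in MPP3. Over all tested genes the shares were 3.51% above and 3.93% below. For each of the 3 pairs, leaving out either of 2 single libraries brought the interval to include 1. Hcfc1 in HSC gave 2.43 without wild-type replicate 3 and 2.28 (0.755 to 7.2) without heterozygous replicate 3. Msl2 in CMP gave 1.54 (0.739 to 3.51) without wild-type replicate 2 and 2.04 (0.931 to 4.71) without heterozygous replicate 2. Msl1 in MPP3 gave 0.623 (0.156 to 5.41) without wild-type replicate 3 and 0.512 (0.235 to 1.21) without heterozygous replicate 3.

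**Figure D3:**
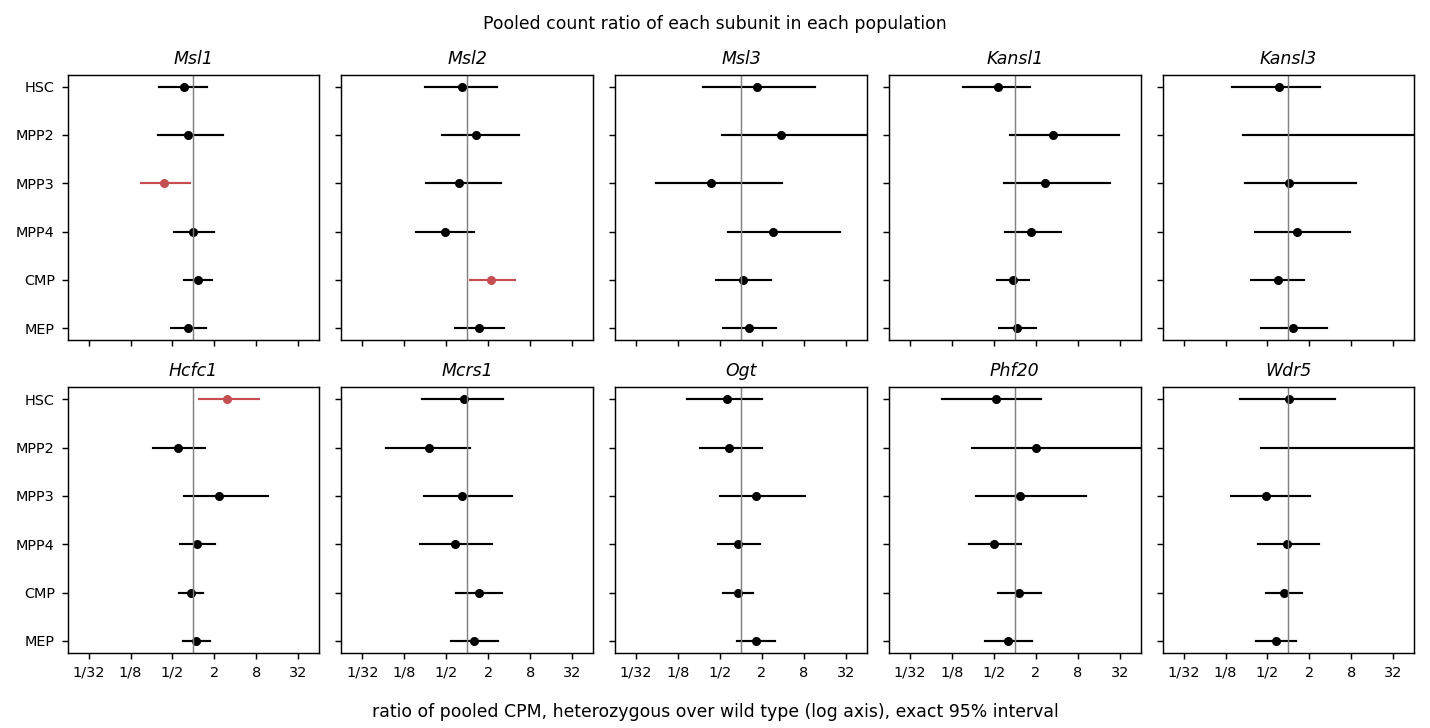
Ratio of pooled CPM, heterozygous over wild type, for each subunit in each population (horizontal log axis). Points are ratios and lines exact 95% intervals, which cover counting error only and run to the edge where they go past it. Red marks the 3 intervals that do not include 1 (Hcfc1 in HSC, Msl2 in CMP, Msl1 in MPP3). No point is drawn where wild type held no count, for Kansl3 and Wdr5 in MPP2. The widest interval of each gene is in MPP2 or MPP3, but HSC is wider than MPP2 for Hcfc1 and Ogt and wider than MPP3 for Wdr5.

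The second comparison asked whether the subunits differed between the populations of 1 genotype, on counts rescaled to a common total. In wild-type cells no member was called by limma's F test, where 3.77% of the 6501 genes tested were called, and none by edgeR (5.14% called; lowest adjusted p of a member 0.284). At an unadjusted p under 0.05 limma had 2 members, Hcfc1 (adjusted p = 0.119) and Wdr5 (adjusted p = 0.13), and edgeR had 0. Without the share of all genes under that threshold, these 2 members show no excess over other genes. In simulated counts with the depths of these libraries, limma's F test called unchanged genes more often than its 5% rate, so the edgeR result is given beside it. In heterozygous cells no member was called by limma (0.754% of genes called; lowest adjusted p 0.669) or by edgeR (6.03% called; lowest adjusted p 0.636), and none had an unadjusted p under 0.05 in either.

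The wild-type order of Hcfc1 ran from HSC at 73.9 CPM (29.7 to 152) and MPP3 at 97.1 CPM (20 to 284) through MEP at 185 CPM, MPP4 at 190 CPM and CMP at 221 CPM to MPP2 at 294 CPM (141 to 542). Each neighbouring pair in that order had overlapping counting intervals, while those of HSC and CMP (162 to 295) did not overlap. Without wild-type HSC replicate 3, HSC was at 93.5 CPM (34.3 to 203), which overlaps the interval of CMP. The heterozygous levels of Hcfc1 lay closer together, from 179 CPM in MPP2 to 227 CPM in HSC. Wild-type Wdr5 ran from 0 in MPP2 over HSC at 52.8 CPM, MPP4 at 74.1 CPM, CMP at 115.5 CPM and MEP at 118.5 CPM to MPP3 at 129 CPM, and all of these intervals overlap. Heterozygous Wdr5 ran from 53.4 CPM in HSC to 98.4 CPM in CMP. For Msl1 the range was 134 CPM in MEP to 324 CPM in MPP3 in wild type, and 112 CPM in MEP to 178.5 CPM in CMP in heterozygous cells.

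Summed over its 3 listed genes, the MSL group ran from 242 CPM in MEP to 518 CPM in MPP3 in wild type and from 247 CPM in MPP3 to 418 CPM in MPP2 in heterozygous cells. The 7 listed NSL genes summed to 591 CPM in HSC up to 823 CPM in CMP in wild type and to 587 CPM in HSC up to 842 CPM in MPP3 in heterozygous cells. All 10 together made up 881 to 1155 CPM in the 12 groups. In MPP3 the pooled MSL level was lower in heterozygous cells (247 against 518 CPM) and the pooled NSL level higher (842 against 615 CPM), a difference in direction that was not tested. MSL was at 274, 362 and 624 CPM in wild type and 255, 325 and 154 CPM in heterozygous libraries, and NSL was at 548, 724 and 624 CPM against 902, 663 and 992 CPM. Both sets of libraries overlap between the genotypes. In MEP the sum of all 10 was 1004, 857 and 899 CPM in wild type and 972, 1012 and 992 CPM in heterozygous libraries, which overlap.

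**Figure D4:**
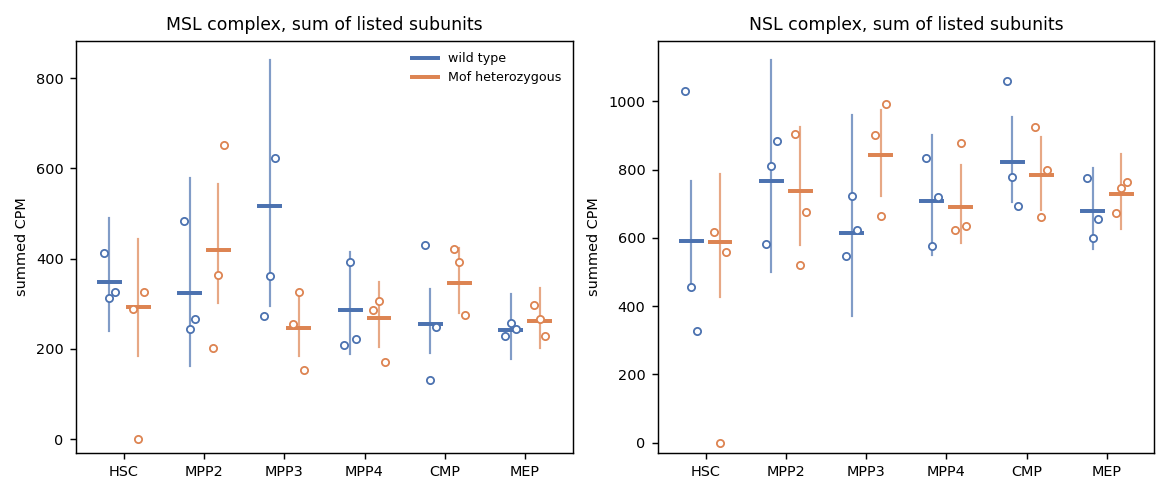
Summed CPM of the 3 listed MSL genes (left) and the 7 listed NSL genes (right) in each population. Open circles are libraries, bars pooled levels and vertical lines exact Poisson 95% intervals, with wild type in blue and Mof heterozygous in orange; heterozygous HSC replicate 2 is at 0 in both panels, and the libraries of the genotypes overlap in every population in both panels.

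Kat8, the gene named in the genotype, had too few counts to check the labels. Wild-type libraries held 12 counts of it (18.3 CPM) and heterozygous ones 11 (9.86 CPM). In single populations Kat8 had at most 4 counts per group, and every interval of its ratio included 1. Of a list of 20 related genes (Kat8, paralogs and partners of the subunits, MLL/SET1 core subunits, INO80 subunits and deacetylases), 19 stood in the tables and 13 passed the filter. None was called on average by limma (9 above 0, 4 below, median 0.04; 0 at an unadjusted p under 0.05), and edgeR called 0 of the 12 it tested, 2 of them at an unadjusted p under 0.05. These 2 were Hcfc1r1, which encodes a regulator that binds HCFC1 (log2 difference 1.56, adjusted p = 0.274), and the remodeller gene Ino80 (0.69, adjusted p = 0.263). Between wild-type populations, 0 of 14 were called by limma, beside 3.77% of all genes, and 2 of them, Zfp143 (adjusted p = 0.103) and Phf20l1 (adjusted p = 0.187), had an unadjusted p under 0.05. Mgea5, the enzyme that removes the sugar that OGT adds, was at 117 CPM over all libraries and had an average difference of -0.12 (SE 0.25).

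Among 3539 genes with at least 100 counts, the 3 whose pooled levels over the 12 groups were most like those of Hcfc1 were Dtnbp1 (Pearson r 0.891 of log2 levels), Ndufs3 (0.889) and Mdp1 (0.889). All points share libraries and depth, and the 3 genes had only 102 to 150 counts each, so these are descriptions. Among the other members with at least 100 counts, r with Hcfc1 ranged from -0.669 for Msl1 to 0.431 for Ogt. Counts of Y-linked genes were present in 35 of 36 libraries and in all 12 groups, while Xist had 2 counts in all. The 3 X-linked members were therefore read in groups that each held Y-linked transcripts.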

How the data were processed

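The submitters' processing notes name BWA 0.6.2-r126 and the mouse build mm10. Each deposited value is a signal, the gene's count after the authors' division by a library-wide size factor; dividing a column by its smallest positive value gave whole counts within 0.01 for 100% of values. The genotypes of 1 population share a scale, and populations do not. CPM was computed from these counts without the 92 spike-in transcripts. For wild-type MEP, 16696 gene names are shifted by 92 lines relative to their values, and the order of the wild-type HSC table was used instead. For molecular identifiers, the counter and the annotation, the procedure is not stated in the labels.

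The main test was limma 3.58.1 (R 4.3.3) on log2(value + 1) over all 36 libraries with 1 coefficient per group, for genes averaging 1 or more, with Benjamini-Hochberg adjustment. Populations were compared on counts rescaled to a total of 41227. Alternatives were a pseudocount of 0.5, a common total, no filter, edgeR 4.0.16, DESeq2 1.42.0 and left-out libraries. EdgeR on genes with at least 50 counts, ratios of pooled counts with exact 95% intervals and the ratios and levels without single libraries were chosen after seeing the data, because edgeR's default filter (1633 genes) left only 3 members. The average and wild-type fits of limma and edgeR were tried on simulated counts. Unchanged genes had 1 mean share of the counts in all groups there, and all genes had the same fixed dispersion. Limma's average was run there on a common total, so its error rate on the deposited scale was not simulated. Limma's F test between wild-type populations and edgeR's average called unchanged genes above the 5% rate. All members are described, as the rule for named genes says, and the related genes by counts. The members, lists and tests were chosen with earlier results of these data known.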

Additional observations from a re-analysis of the deposited data

How the results depend on the processing

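The number of members called on average was 0 under all alternatives run: pseudocount 0.5, common total, no filter, edgeR with its default filter or at least 50 counts, DESeq2, without the 6 shallow libraries, and without each of the 36 libraries in turn. For the heterozygous populations it was 0 throughout as well. For the wild-type populations it ranged from 0 to 2 over the left-out libraries: 1 (Wdr5, limma adjusted p = 0.0305) without wild-type MPP3 replicate 1, where 3.82% of all genes were called, and 2 (Hcfc1 and Ogt, lowest adjusted p = 0.0207) without wild-type MPP3 replicate 3, which leaves only shallow MPP3 libraries and where 10.8% of all genes were called. Average differences changed sign for Phf20 (0.048) and Wdr5 (0.53) in edgeR with at least 50 counts. That Wdr5 value includes MPP2, where wild type held no count of the gene. The sign also changed for Ogt in DESeq2 (-0.072), and for Kansl3 (-0.16), Mcrs1 (0.15) and Ogt (-0.027) without the shallow libraries. Leaving out single libraries moved Ogt between -0.024 and 0.21 and Wdr5 between -0.21 and 0.056; the cause was not tested. That of Hcfc1 stayed between 0.35 and 0.69, and that of Msl1 between -0.42 and -0.23. The others kept their sign, with ranges of 0.059 to 0.27 for Msl2, 0.34 to 0.56 for Msl3, 0.088 to 0.3 for Kansl1, 0.034 to 0.27 for Kansl3, -0.26 to -0.026 for Mcrs1 and -0.26 to -0.095 for Phf20. The median of all genes moved from 0.12 with limma to 0.33 with edgeR and -0.26 with DESeq2, where the members' median was 0.007. EdgeR's default filter tested 3 members (Msl1, Hcfc1 and Ogt). No paired analysis was possible because no number in the column names is common to any 2 groups. With 85 to 353 counts per member in all, depth limits every comparison of single populations.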
